A study of Mus musculus with 81 samples.

Results

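The orphan and adhesion G protein-coupled receptors were taken as all genes whose symbol is Gpr followed by a number or begins with Adgr, apart from Gpr34 and Adgrg1, each read from its brightest probe that carries 1 symbol. There were 87 such genes, 23 Adgr and 64 Gpr, among 22180 genes with a usable probe. Values are log2 microarray signals of sorted mouse macrophages and their precursors from 80 samples in 27 groups, of which 14 groups (41 samples) were wildtype and 13 groups (39 samples) were Irf8 knockout. A gene was tested when its signal exceeded 3.04, the median of all values and here called the floor, on at least 2 arrays. This left 17099 genes, of which 64 were receptors of this class. The other 23 were not tested, and 30 of the 87, including 8 tested ones, had no group mean above the floor.

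Wildtype and Irf8 knockout groups covered adult microglia from brain, adult Kupffer cells and CD11bhigh macrophages from liver, adult F4/80high and CD11bhigh macrophages from kidney, and adult Langerhans cells from skin, all at 6 weeks of age. The same 5 non-skin populations were sorted at embryonic day 14 (E14), and the yolk sac progenitor populations A1 and A2 at E9.5. Erythro-myeloid progenitors of the E8 yolk sac were wildtype only. Each group had 3 samples, except wildtype E14 kidney F4/80high macrophages with 2. The labels name neither the strain nor the knockout allele, nor whether replicates came from separate animals, so p-values measure the spread between these samples, which may be technical. Wildtype Langerhans samples are titled GFP+ and the knockout ones are not, and the adult liver CD11bhigh samples are titled as non-Kupffer cells. Irf8 encodes an interferon regulatory factor, a DNA-binding protein that acts in monocyte and macrophage development, usually with a partner such as PU.1.

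The Irf8 probe does not check the genotype labels in most populations. Its signal in adult microglia was 9.69 to 9.95 in wildtype and 9.98 to 10.65 in knockout samples, and it passed the test as lower in 4 of 13 populations, by 3.02 on the log2 scale in E14 liver CD11bhigh macrophages. Which part of the transcript the probe reads was not analysed here. Sex is not labelled, and Xist, the RNA of the inactive X chromosome, stood at 2.71 to 3.88 in the 3 wildtype and 9.52 to 9.99 in the 3 knockout adult Kupffer samples, so sex pattern and genotype cannot be told apart there. In Langerhans samples Eif2s3y, a Y-linked gene, read 1.62, 2.68 and 1.31 in wildtype and 4.87, 4.93 and 7.57 in knockout, which also follows genotype, while Xist read 9.77 to 10.30 and 7.70 to 9.68. Xist was likewise 2.58 to 3.88 in the wildtype adult Kupffer and kidney F4/80high samples, below wildtype Langerhans cells and below E14 samples of the same populations, so sex pattern also moves with these tissue and stage comparisons. Its part in them was not tested. Of the receptors, 10 are X-linked and 6 of these were tested, Gpr165 and Gpr82 among them.

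Markers of other cells also moved with genotype. In adult Kupffer samples the mean of 12 endothelial markers ran from 4.97 to 6.79 in wildtype and 7.30 to 7.86 in knockout, and 11 of 12 rose. In Langerhans samples the mean of 6 keratinocyte markers on the array ran from 7.21 to 7.55 in wildtype and 9.44 to 9.64 in knockout, and 6 of 6 rose. The mean of 11 neutrophil markers ran from 6.14 to 7.79 in wildtype and 10.09 to 10.42 in knockout adult liver CD11bhigh samples, where 7 of 11 rose. In adult kidney CD11bhigh samples it ran from 4.02 to 5.61 and 8.13 to 8.90, and 8 of 11 rose. In bulk samples, fewer cells of a type and less RNA per cell cannot be told apart. These marker changes stand beside every knockout difference given below for the same populations, and their part was not tested. Markers of the labelled identity are given here for some wildtype groups only. The mean of 8 microglia markers was 10.04 to 10.21 in adult microglia, that of 7 Kupffer markers 9.99 to 10.25 in adult Kupffer cells, and that of the Langerhans markers 9.27 to 9.54 in Langerhans cells. The microglia marker mean was 8.17 to 8.35 in knockout adult microglia and 6.90 to 7.25 in knockout E14 microglia, against 9.33 to 9.38 in wildtype E14 microglia.

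G protein-coupled receptors span the membrane 7 times and pass signals from outside the cell to heterotrimeric G proteins. Those named Gpr entered the databases without a known ligand, although several have since been paired with lipids, metabolites or protons. Adhesion receptors (Adgr) carry long extracellular regions that are cut at an autoproteolytic site and bind other cells or matrix, and Adgre1 encodes F4/80, the surface protein by which the kidney F4/80high populations are named. Macrophages use members of both groups to read tissue acidity, lipids and cell contacts.

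Printed below are the 250 bases before an annotated start of Gpr84, Gpr18 and Gpr65, to show an IRF-type and a PU.1-type sequence. Gpr84 was the receptor most often higher in the knockout, Gpr18 holds an IRF-type repeat, and Gpr65 changed most in adult microglia. The sequences are from RefSeq (GRCm38.p6), 5′ to 3′ on the gene's strand, and capitals mark a match. The Gpr84 window lies at chr15:103310439-103310688 on the minus strand, that of Gpr18 at chr14:121915889-121916138 on the minus strand, and that of Gpr65 at chr12:98268385-98268634 on the plus strand. The annotated Gpr84 gene spans chr15:103308233-103310670, so most of its window, with the marked match, lies inside the gene.
Gpr84: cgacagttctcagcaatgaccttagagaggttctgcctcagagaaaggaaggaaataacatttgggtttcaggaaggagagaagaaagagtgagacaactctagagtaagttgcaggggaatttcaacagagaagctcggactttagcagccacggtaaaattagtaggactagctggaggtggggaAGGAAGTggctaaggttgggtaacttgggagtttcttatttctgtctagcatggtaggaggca
Gpr18: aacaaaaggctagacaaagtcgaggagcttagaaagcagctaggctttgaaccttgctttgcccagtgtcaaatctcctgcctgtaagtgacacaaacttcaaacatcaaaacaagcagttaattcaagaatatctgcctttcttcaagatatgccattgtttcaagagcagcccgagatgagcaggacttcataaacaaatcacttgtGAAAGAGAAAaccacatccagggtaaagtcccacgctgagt
Gpr65: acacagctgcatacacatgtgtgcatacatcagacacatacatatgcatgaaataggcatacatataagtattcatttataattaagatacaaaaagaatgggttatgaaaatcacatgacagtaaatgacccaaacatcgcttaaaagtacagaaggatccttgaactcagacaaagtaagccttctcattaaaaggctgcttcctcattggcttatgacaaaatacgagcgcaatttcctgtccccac
Both strands were searched for GAAANNGAAA, an interferon-response type repeat, and for AGGAAGT, a PU.1-type site, which do not overlap each other in these windows. A promoter entry was found for 49 of the 64 tested receptors, in 63 windows. The repeat occurred in 4 of 63 windows (6.35%) against 2.98% of 32851 windows of the same length, in Adgrl3, Gpr141b, Gpr18 and Gpr19. AGGAAGT occurred in 6 of 63 (9.52%) against 7.69%, in Gpr132, Gpr137c, Gpr19, Gpr31b, Gpr55 and Gpr84. Gpr65 held neither in this window. A match is a description of letters and not a binding site.

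The number of these receptors with signal above the floor differed between groups. Counting those above the floor in every sample, between 21 of 87 (wildtype E8 progenitors) and 36 of 87 (wildtype Langerhans cells) were detected in a group. A mean above the floor in all 27 groups was seen for 16, and 23 reached a mean of 7 or more in at least 1 group. The same counts over all genes are not given here, so these numbers do not set the receptors apart from other genes. Levels are compared below for a gene across groups and never between genes, since probes differ in brightness.

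**Figure D1:**
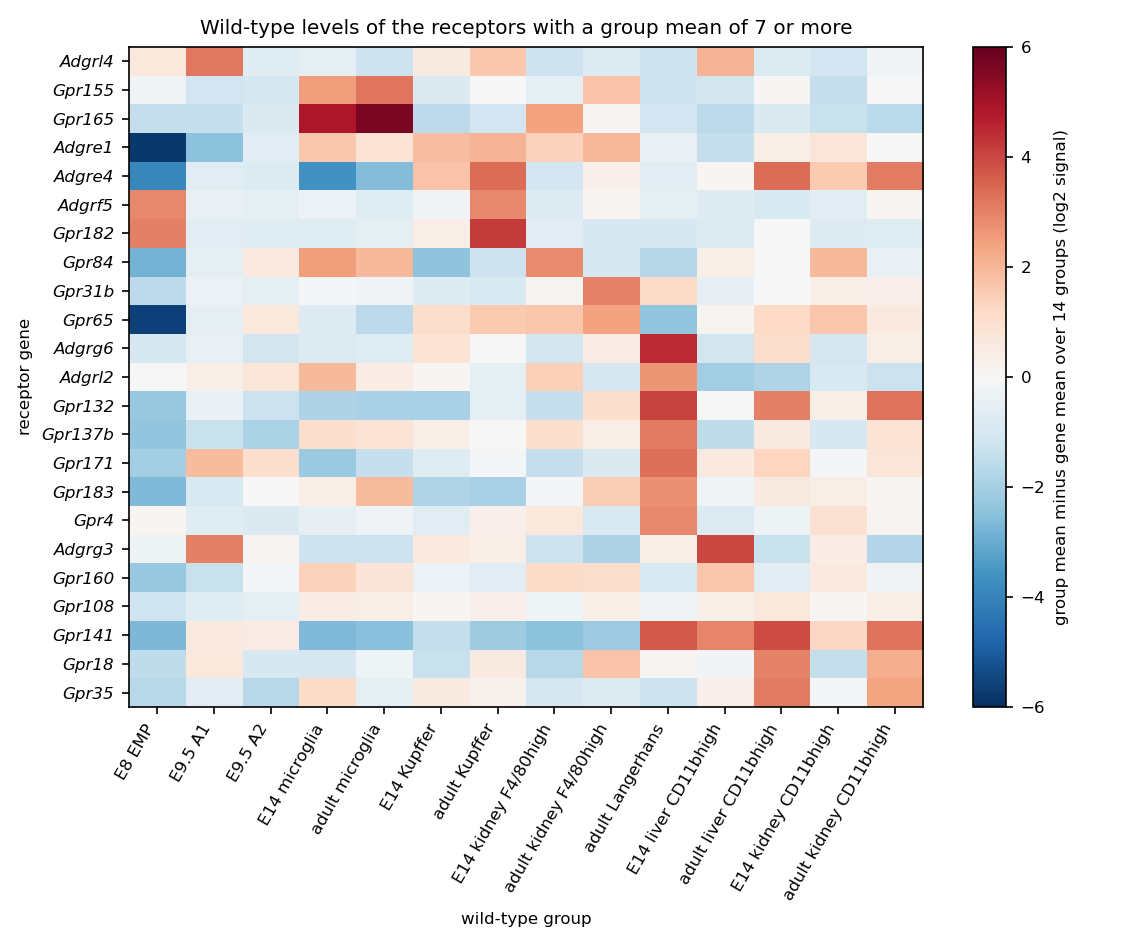
Wildtype level of the 23 receptors with a group mean of 7 or more in any group, shown as the group mean minus the gene's mean over the 14 wildtype groups (log2, colour). Gpr165 is high in both microglia groups and Gpr141 in the CD11bhigh and Langerhans groups.

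Microglia stood apart from the other resident macrophages by Gpr165, an orphan receptor, by Gpr84, a receptor for medium-chain fatty acids, and by Gpr155, a lysosomal membrane protein that senses cholesterol. Gpr165 read 9.58, 9.13 and 8.75 in the 3 wildtype adult microglia samples, and 1.90 to 3.72 in the 9 samples of adult Kupffer cells, kidney F4/80high macrophages and Langerhans cells. The microglia level exceeded the mean of the other 3 populations by 6.42 ± 0.20 (log2, SE; limma, adjusted p = 3.1e-36). Gpr84 read 8.12, 7.69 and 8.22 in adult microglia against 4.19 to 5.33 in the other 9 samples, a difference of 3.27 ± 0.27. Gpr155 read 7.88, 7.26 and 7.68, above every other resident sample, and the difference was 3.06 ± 0.22. For all of these genes the microglia samples did not overlap the others. Where the lower group lies at or near the floor, as for Gpr165 here and for Gpr141, Ch25h and Gpr65 in E8 progenitors below, the printed difference is a lower bound, since background signal takes part in the lower value. Among receptors lower in microglia, Adgre4, an adhesion receptor of myeloid cells, differed by -3.60 ± 0.28 and Gpr132, a receptor linked to protons and oxidised lipids, by -3.41 ± 0.29. In all, 12 of 64 were higher and 21 lower in microglia, of which 13 did not overlap. Of all tested genes, 41.2% were called in either direction. Overlap of samples was not counted over all genes, here or below, so such counts do not set the receptors apart from other genes.

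In Langerhans cells 20 receptors were higher and 19 lower than the mean of the other 3 resident populations. That was 60.9% of the tested receptors, where 52.8% of all genes were called. The calls include Adgrf4 and Gpr149, which each exceeded the floor on only 5 arrays, and Adgrf4 only on Langerhans arrays. Part of this count thus comes from receptors that entered the test through the group where they were high. Gpr141, an orphan receptor of leukocytes, read 8.59, 8.51 and 8.94 in Langerhans cells against 1.56 to 3.10 in the other 9 samples (5.96 ± 0.30, adjusted p = 1.44e-26). Gpr132 read 9.33, 9.33 and 9.87, and exceeded the others by 4.55 ± 0.29. Adgrg6, an adhesion receptor known from myelinating Schwann cells, read 7.37, 7.56 and 7.39 against 1.95 to 4.23 elsewhere and differed by 4.55 ± 0.30. Gpr171, an orphan paired with a neuropeptide, differed by 4.07 ± 0.29, and Gpr55, a lysophosphatidylinositol receptor, by 3.71 ± 0.23. All of these Langerhans samples lay above the other resident samples. Gpr65, a proton sensor that raises cyclic AMP, was lower in Langerhans cells than in any other resident population, at 6.07, 6.09 and 5.52, with a difference from their mean of -3.18 ± 0.21. The keratinocyte marker mean was 7.21 to 7.55 in these samples, and its part in the differences was not tested.

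Kupffer cells were marked by a different set, of which 12 receptors were higher and 21 lower, with 6 not overlapping and 39% of all genes called. Adgre4 read 9.90, 9.84 and 9.88 against 3.26 to 7.47 in the other resident samples, a difference of 4.35 ± 0.28. Gpr182, a scavenging chemokine receptor of endothelium, read 7.79, 7.01 and 8.76 and differed by 5.04 ± 0.32. Adgrf5 and Adgrl4, adhesion receptors best known from endothelium, differed by 3.27 ± 0.28 and 2.71 ± 0.33. These 3 endothelium-type genes moved with the endothelial marker mean, which was 4.97 to 6.79 in these samples, and its part was not tested. Gpr183, which senses oxysterols made by immune and stromal cells, was the opposite case: it read 5.13, 5.11 and 3.74 in Kupffer cells against 7.98 to 9.47 in the other resident samples (-4.01 ± 0.25).

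In kidney F4/80high macrophages 8 receptors were higher and 13 lower, and 4 did not overlap. That was 32.8% of the tested receptors, near the 30.2% of all genes called. Gpr65 was highest here, at 10.55, 10.83 and 10.75, and exceeded the mean of the others by 3.24 ± 0.21. Gpr31b, a receptor for a hydroxy fatty acid, read 7.82, 7.56 and 7.45 against 2.87 to 6.14 and differed by 2.98 ± 0.32. Gpr18, a lipid-responsive receptor of lymphoid and myeloid cells, differed by 1.58 ± 0.25, and Gpr4, a proton sensor of endothelium, by -1.92 ± 0.29. The 4 tissue comparisons share samples, so their values are not independent of each other.

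The order of Gpr65 over the 14 wildtype groups ran from 10.71 ± 0.14 (SD, n = 3) in adult kidney F4/80high macrophages through 9.94 in E14 kidney F4/80high (n = 2) and 9.92 ± 0.07 in E14 kidney CD11bhigh macrophages to 9.83 ± 0.08 in adult Kupffer cells. The samples of these last 3 neighbours overlapped. At the other end stood Langerhans cells at 5.89 ± 0.32 and E8 progenitors at 2.66 ± 0.28, the latter below the floor. For Gpr165, only the microglia and the E14 kidney F4/80high group rose far above the floor, at 9.15 ± 0.41 in adult microglia, 8.33 ± 0.10 in E14 microglia and 5.93 in the kidney group (5.84 and 6.01).

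**Figure D2:**
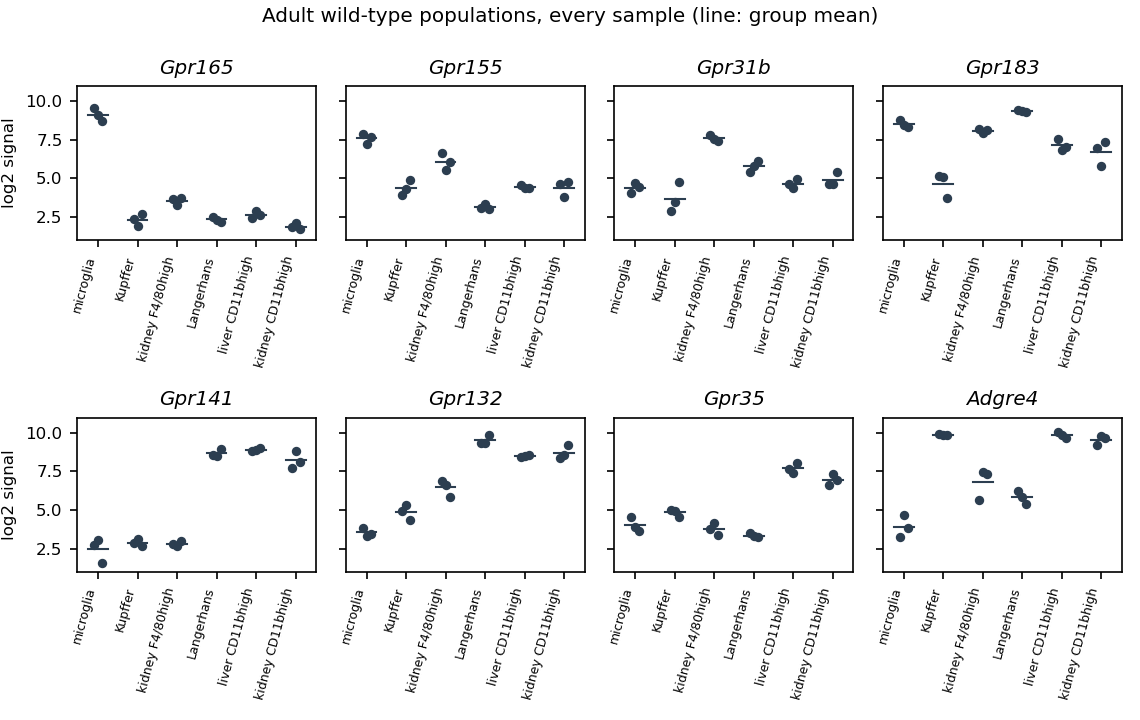
Signals (log2) of Gpr165, Gpr155, Gpr31b, Gpr183, Gpr141, Gpr132, Gpr35 and Adgre4 in each sample of the 6 adult wildtype populations, with a bar at each group mean. Gpr141 is at 7.70 or above in both CD11bhigh populations and in Langerhans cells and at 3.10 or below in the other 3.

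Within an organ, the sorted CD11bhigh fraction differed from its F4/80high or Kupffer neighbour in receptors that partly recurred in liver and kidney. In liver, 9 receptors were higher and 10 lower in CD11bhigh cells, against 28% of all genes called. Gpr141 read 8.82, 8.88 and 9.05 against 2.85, 3.10 and 2.65 (6.05 ± 0.37), and Gpr132 (3.62 ± 0.35), Gpr35, a receptor for tryptophan and serotonin metabolites (2.88 ± 0.30), Gpr183 (2.49 ± 0.31) and Gpr18 (2.45 ± 0.30) were also higher. Gpr182 was lower by 4.23, Adgrf5 by 3.80 and Adgrl4 by 2.42 in the CD11bhigh cells, beside the endothelial marker values given above.

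In kidney, 7 were higher and 12 lower, against 23.6% of all genes called. Gpr141 read 7.70, 8.85 and 8.14 against 2.77, 2.67 and 3.01 (5.41 ± 0.37), and Gpr35 (3.20 ± 0.30), Adgre4 (2.74 ± 0.34), Gpr132 (2.25 ± 0.35) and Gpr171 (1.62 ± 0.36) were higher. Gpr31b (-2.69 ± 0.39), Gpr65 (-1.86 ± 0.25), Gpr157 (-1.79 ± 0.32) and Gpr155 (-1.68 ± 0.27) were lower. Gpr141, Gpr35, Gpr132 and Gpr171 were thus called higher in CD11bhigh cells of both organs, although the liver call for Gpr171 was lost without the third wildtype Kupffer sample (0.72, adjusted p = 0.145). Adgre1 was lower in CD11bhigh cells (-1.65 in liver and -1.89 in kidney). Its protein names the kidney populations compared, and the liver fractions are sorted gates too, so neither difference is taken as an independent result. The kidney tubule marker mean was 6.82 to 9.25 in the adult kidney CD11bhigh and 5.27 to 7.62 in the F4/80high wildtype samples.

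Between E14 and adulthood, resident macrophages changed in receptors that partly recurred between tissues. Adgre4 and Gpr155 were called higher in the adult in all 3, although the microglia calls (1.01 and 0.73) were lost when single samples were left out. The Adgre4 call in kidney F4/80high macrophages and the Gpr155 call in Kupffer cells were also not kept in every alternative. Microglia (11 called) and kidney F4/80high macrophages (20 called) had 7 calls in common, of which Gpr183, Gpr82, Adgre4 and Gpr155 were higher and Adgrl2 lower in the adult in both, while Gpr165 and Gpr65 went opposite ways. Kupffer cells (13 called) shared 7 with kidney, of which Gpr84 and Gpr4 went opposite ways. Shared calls were not counted over all genes, so these counts do not set the receptors apart from other genes. In wildtype microglia 5 receptors were higher and 6 lower in the adult, and 18.3% of all genes were called. Gpr183 rose from 6.81, 7.05 and 7.26 to 8.77, 8.46 and 8.36 (1.49 ± 0.31), and Gpr82, an X-linked orphan, rose by 1.13 ± 0.31. Gpr35 fell by 1.63 ± 0.30, from 5.72, 5.87 and 5.42 to 4.57, 3.89 and 3.64. Adgra2, a co-receptor for WNT7 in brain vessels, fell by 1.41 ± 0.30. Without the second wildtype E14 microglia sample, 7 rather than 11 receptors passed.

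In Kupffer cells 12 were higher and 1 lower in the adult, with 30% of all genes called. Gpr141b, a paralog of Gpr141, rose by 2.25 ± 0.38, Gpr18 by 1.88 ± 0.30, Adgre4 by 1.68 ± 0.34, and Gpr84 by 1.19 ± 0.33. Gpr182 (3.83 ± 0.39) and Adgrf5 (3.04 ± 0.34) rose most, while the endothelial marker mean was 3.78 to 4.07 in E14 and 4.97 to 6.79 in adult wildtype samples. That difference in markers moves with these receptors, and its part was not tested.

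In kidney F4/80high macrophages 13 were higher and 7 lower in the adult, with 28.2% of all genes called. Gpr84 read 8.86 and 8.92 in the 2 E14 samples and 4.78, 5.33 and 5.17 in the adult, and fell by 3.80 ± 0.37. Gpr165 fell by 2.38 ± 0.28 and Adgrl2, a latrophilin, by 2.44 ± 0.38. Gpr18 (3.39 ± 0.34), Gpr31b (2.80 ± 0.44), Gpr132 (2.36 ± 0.40), Gpr155 (2.29 ± 0.30) and Adgrg6 (1.61 ± 0.41) rose. Gpr84 was thus lower in the adult in kidney and higher in Kupffer cells, and in microglia it read 8.58, 8.57 and 8.51 at E14 and 8.12, 7.69 and 8.22 in the adult, which did not pass. Without the first wildtype E14 kidney F4/80high sample, 11 rather than 20 receptors passed, with 1 sample left in that group and its spread taken from the others.

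In the yolk sac, most of the receptors that moved between the E8 progenitor and the E9.5 A1 population rose. Here 17 of 64 were higher and 4 lower, and 22.7% of all genes were called. Gpr65 read 2.37, 2.68 and 2.93 in E8 progenitors and 7.72, 7.59 and 7.74 in A1 (5.03 ± 0.25, adjusted p = 2.67e-26). Gpr171 (3.96 ± 0.36), Adgre1 (3.35 ± 0.26), Adgrg3, a neutrophil-rich adhesion receptor (3.35 ± 0.48), Gpr141 (3.29 ± 0.37) and Adgre4 (3.23 ± 0.34) rose. Gpr182 fell from 6.87, 6.78 and 6.41 to 3.27, 3.14 and 2.47 (-3.73 ± 0.39), and Adgrf5 fell by 3.31 ± 0.34, whereas Adgrl4 rose by 2.55 ± 0.40. The endothelial marker mean was 5.04 to 5.41 in E8 progenitors and 4.23 to 4.69 in A1.

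From A1 to A2, 5 were higher and 6 lower, with 11.4% of all genes called. Adgre1 rose by 1.83 ± 0.26, Gpr160 by 1.24 ± 0.26, Gpr65 by 1.23 ± 0.25 and Gpr84 by 1.19 ± 0.33. Adgrl4 read 7.37, 6.86 and 6.51 in A1 and 2.96, 3.14 and 2.89 in A2 and fell by 3.92 ± 0.40. Adgrg3 (-2.85 ± 0.48), Gpr174, a lysophosphatidylserine receptor (-2.20 ± 0.41), and Gpr18 (-1.59 ± 0.30) also fell. The 3 yolk sac groups share the A1 samples between these comparisons.

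Irf8 loss was compared with wildtype in 13 populations, each with its own wildtype samples. At E14, Xist read 9.71, 9.15 and 3.16 in knockout microglia and 9.24, 8.72 and 3.14 in knockout Kupffer samples. It read 9.40, 9.29 and 3.21 in knockout liver CD11bhigh samples. Populations may thus share embryos, so counts over populations are not counts of independent tests. Of 832 pairs of a receptor and a population, 73 were higher and 62 lower in the knockout, and 697 did not pass. In 124 of the called pairs no knockout sample overlapped a wildtype one, a count not made over all genes. Over all tested genes, 6.35% of such pairs were higher and 6.58% lower, 12.9% in all. Of the 135 called receptor pairs, 109 had both group means above the floor, 23 only 1 and 3 neither. At least 1 call was made for 44 of 64 receptors (68.8%), against 68.6% of all tested genes. Calls in at least 5 populations were made for 12 receptors (18.8%), against 8.46% of all genes, and calls in both directions for 21 (32.8%), against 23.2%. The 12 were Gpr84, Gpr65, Adgrg3, Adgre4, Gpr171, Gpr141, Gpr183, Gpr155, Gpr35, Adgre1, Adgrl3 and Adgra2. Adgrl3 counts by its brightest probe, which changed by 0.86 in E14 microglia and -1.67 in E14 kidney F4/80high macrophages. Its second probe changed there by -0.02 and -0.22.

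**Figure D3:**
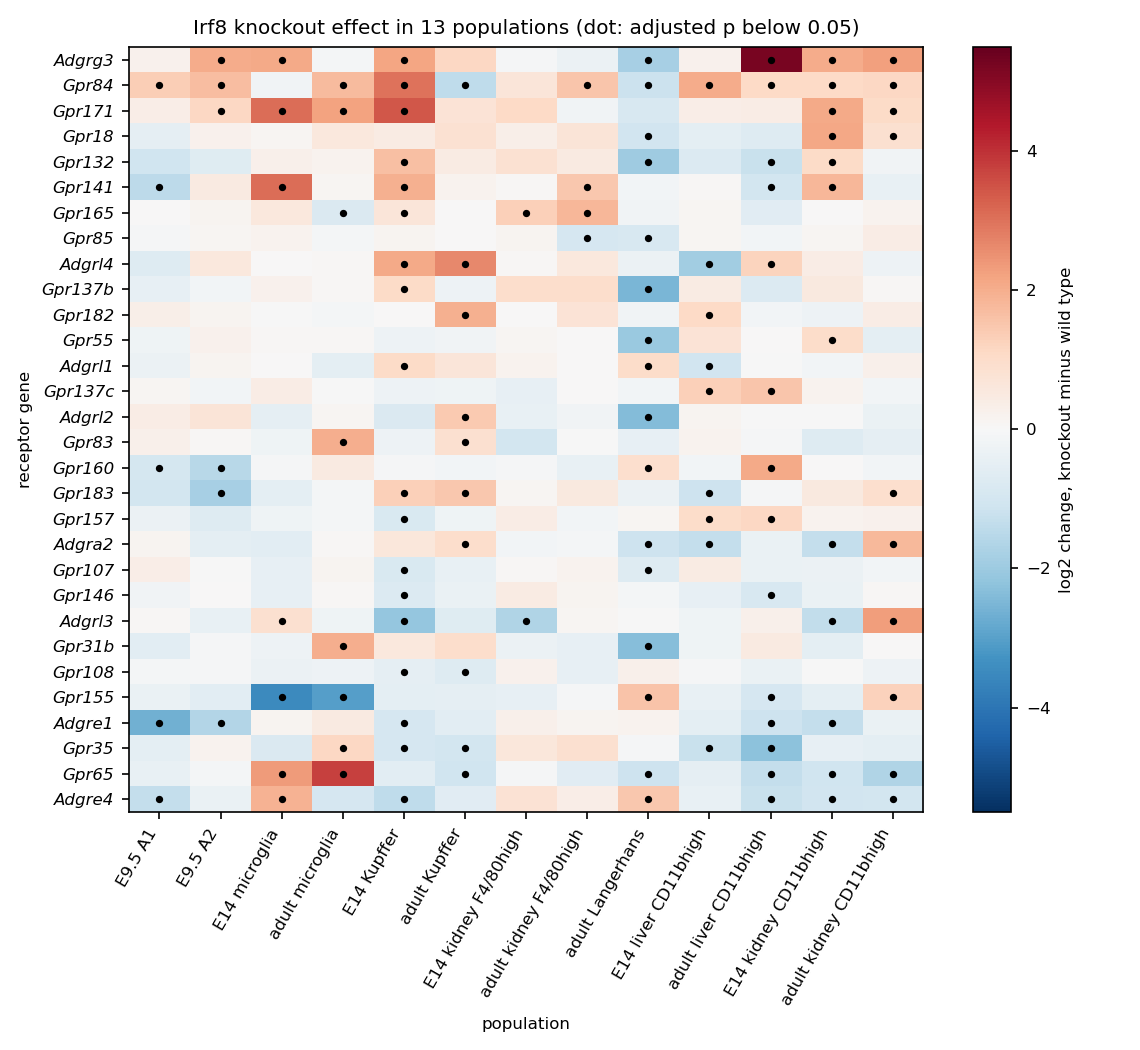
Knockout minus wildtype difference (log2, colour) of the 30 receptors called in 2 or more populations, by population; dots mark adjusted p below 0.05 in the limma fit over all genes. Gpr84 is positive and dotted in 9 populations, and Gpr155 is strongly negative in both microglia groups.

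The share of the 64 receptors called ran from 4.69% in E14 kidney F4/80high macrophages to 31.2%, and stands here beside that of all genes. In adult microglia 6 were higher and 2 lower (14.6% of all genes called), in adult Kupffer cells 8 and 5 (11.9%), in adult kidney F4/80high macrophages 3 and 1 (3.56%), and in Langerhans cells 6 and 14 (27%). In adult liver CD11bhigh macrophages 7 were higher and 8 lower (16.8%), and in adult kidney CD11bhigh macrophages 8 and 2 (13.6%). At E14, the counts were 6 and 2 in microglia (14.3%), 12 and 8 in Kupffer cells (23%), 1 and 2 in kidney F4/80high (1.97%), 5 and 5 in liver CD11bhigh (14%) and 7 and 6 in kidney CD11bhigh macrophages (14%). In the yolk sac 1 was higher and 4 lower in A1 (3.36%), and 3 and 3 in A2 (10%). Leaving out 1 sample moved some counts by over 1.5 times: to 8 in adult Kupffer cells, 6 in adult kidney CD11bhigh, 6 in E14 liver CD11bhigh and 8 in E14 kidney CD11bhigh macrophages without the second knockout sample of each. It was also 6 in adult kidney CD11bhigh macrophages without the third knockout sample. In A1 it was 1 without the third wildtype, 3 without the second wildtype and 2 without the third knockout sample. Kupffer cells at E14 and adult Langerhans cells each had 20 receptors called, 31.2% of the 64. Medians over the 64 lay between -0.13 in Langerhans cells and 0.07 in adult Kupffer cells, against -0.04 to 0.03 over all genes.

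Gpr65 rose in microglia of both stages. Over the 3 tested proton sensors and 13 populations, 4 pairs were higher, 8 lower and 27 did not pass, so that 30.8% were called against 12.9% over all genes. Gpr65 read 6.20, 6.89 and 7.0 in wildtype and 10.49, 10.45 and 10.50 in knockout adult microglia. The knockout samples thus lay over 3 log2 units above every wildtype one, a change of 3.78 ± 0.25 (adjusted p = 1.22e-19). At E14 the microglia values were 7.42, 7.59 and 7.45 against 9.95, 9.74 and 9.84 (2.36 ± 0.25, adjusted p = 5.61e-11). Wildtype adult kidney F4/80high macrophages, where Gpr65 was highest, read 10.55 to 10.83.

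Elsewhere Gpr65 was lower or did not pass. It fell by 1.65 ± 0.25 in adult kidney CD11bhigh, by 1.31 ± 0.25 in adult liver CD11bhigh and by 1.11 ± 0.25 in E14 kidney CD11bhigh macrophages, and by 1.16 ± 0.25 in Langerhans cells, where the samples overlapped. The neutrophil markers of the adult CD11bhigh samples and the keratinocyte markers of the Langerhans samples moved beside these falls, and their part was not tested. The fall of 1.10 in adult Kupffer cells was not past the threshold without the second knockout sample (-0.67, adjusted p = 0.103). Gpr132 fell in Langerhans cells from 9.33, 9.33 and 9.87 to 7.82, 7.68 and 7.23 (-1.94 ± 0.35), and by 1.21 ± 0.35 in adult liver CD11bhigh macrophages, and rose in E14 Kupffer cells by 1.66 ± 0.35. It also rose by 1.07 ± 0.35 in E14 kidney CD11bhigh macrophages, a call lost when any of 4 single samples was left out. The adult liver call was lost without the first knockout sample (-0.82, adjusted p = 0.174). Gpr4 fell in E14 kidney CD11bhigh macrophages by 1.64 ± 0.35.

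Gpr84 was the receptor most often higher in the knockout. Among lipid and metabolite receptors, 8 tested, 18 pairs were higher, 11 lower and 75 did not pass (27.9% called, against 12.9% over all genes), and Gpr84 alone gave 9 of the 18. Across all 17099 tested genes, 3 were higher in 9 or more populations, Gpr84 included. In E14 Kupffer cells it read 3.46, 3.54 and 3.85 in wildtype and 6.70, 6.55 and 6.52 in knockout (2.97 ± 0.33, adjusted p = 1.55e-10). In adult microglia it read 8.12, 7.69 and 8.22 against 9.90, 9.67 and 9.63 (1.72 ± 0.33, adjusted p = 5.76e-05).

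Gpr84 also rose in E14 liver CD11bhigh macrophages (2.03 ± 0.33), yolk sac A2 (1.69 ± 0.33) and adult kidney F4/80high macrophages (1.53 ± 0.33). These calls held in every alternative tried, whereas those in A1 (1.34), E14 kidney CD11bhigh (1.08), adult kidney CD11bhigh (1.14) and adult liver CD11bhigh macrophages (1.11) did not. In A1, adjusted p was 0.0619 without the third wildtype and 0.0546 without the first knockout sample. The Gpr84 p reached 0.139 in E14 kidney CD11bhigh without the second wildtype sample, 0.305 in adult kidney CD11bhigh without the first and 0.182 in adult liver CD11bhigh macrophages without the third. Gpr84 went the other way in Langerhans cells (-1.17 ± 0.33) and in adult Kupffer cells, where 5.25, 4.61 and 4.57 in wildtype stood against 3.21, 2.83 and 4.18 in knockout (-1.40 ± 0.33). The adult Kupffer call was lost with array weights and when only the compared groups were fitted. In E14 microglia it read 8.58, 8.57 and 8.51 against 8.53, 8.22 and 8.31, which did not pass.

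Calls among the other lipid and metabolite receptors were fewer. Gpr31b rose in adult microglia from 4.03, 4.71 and 4.47 to 6.53, 6.38 and 6.24 (1.98 ± 0.39) and fell in Langerhans cells from 5.45, 5.79 and 6.14 to 3.31, 3.64 and 3.42 (-2.34 ± 0.39). Gpr55 fell in Langerhans cells by 2.05 ± 0.28, from 6.13, 6.43 and 5.82 to 4.41, 4.23 and 3.59. Gpr35 fell in adult liver CD11bhigh macrophages from 7.68, 7.43 and 8.06 to 4.84, 5.65 and 5.92 (-2.25 ± 0.30) and in E14 liver CD11bhigh macrophages by 1.24 ± 0.30. Gpr18 rose in E14 kidney CD11bhigh macrophages from 4.24, 3.78 and 3.27 to 5.83, 5.82 and 5.97 (2.11 ± 0.30). Gpr174 rose in E14 Kupffer cells by 2.34 ± 0.41. Gpr183 rose in E14 Kupffer cells (1.31 ± 0.31) and fell in yolk sac A2 from 6.85, 6.60 and 6.54 to 5.27, 5.20 and 4.0 (-1.84 ± 0.31). In adult liver CD11bhigh samples the neutrophil marker values given above moved beside the fall of Gpr35. In Langerhans samples the keratinocyte marker values moved beside the falls of Gpr31b and Gpr55. The part of these markers was not tested.

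**Figure D4:**
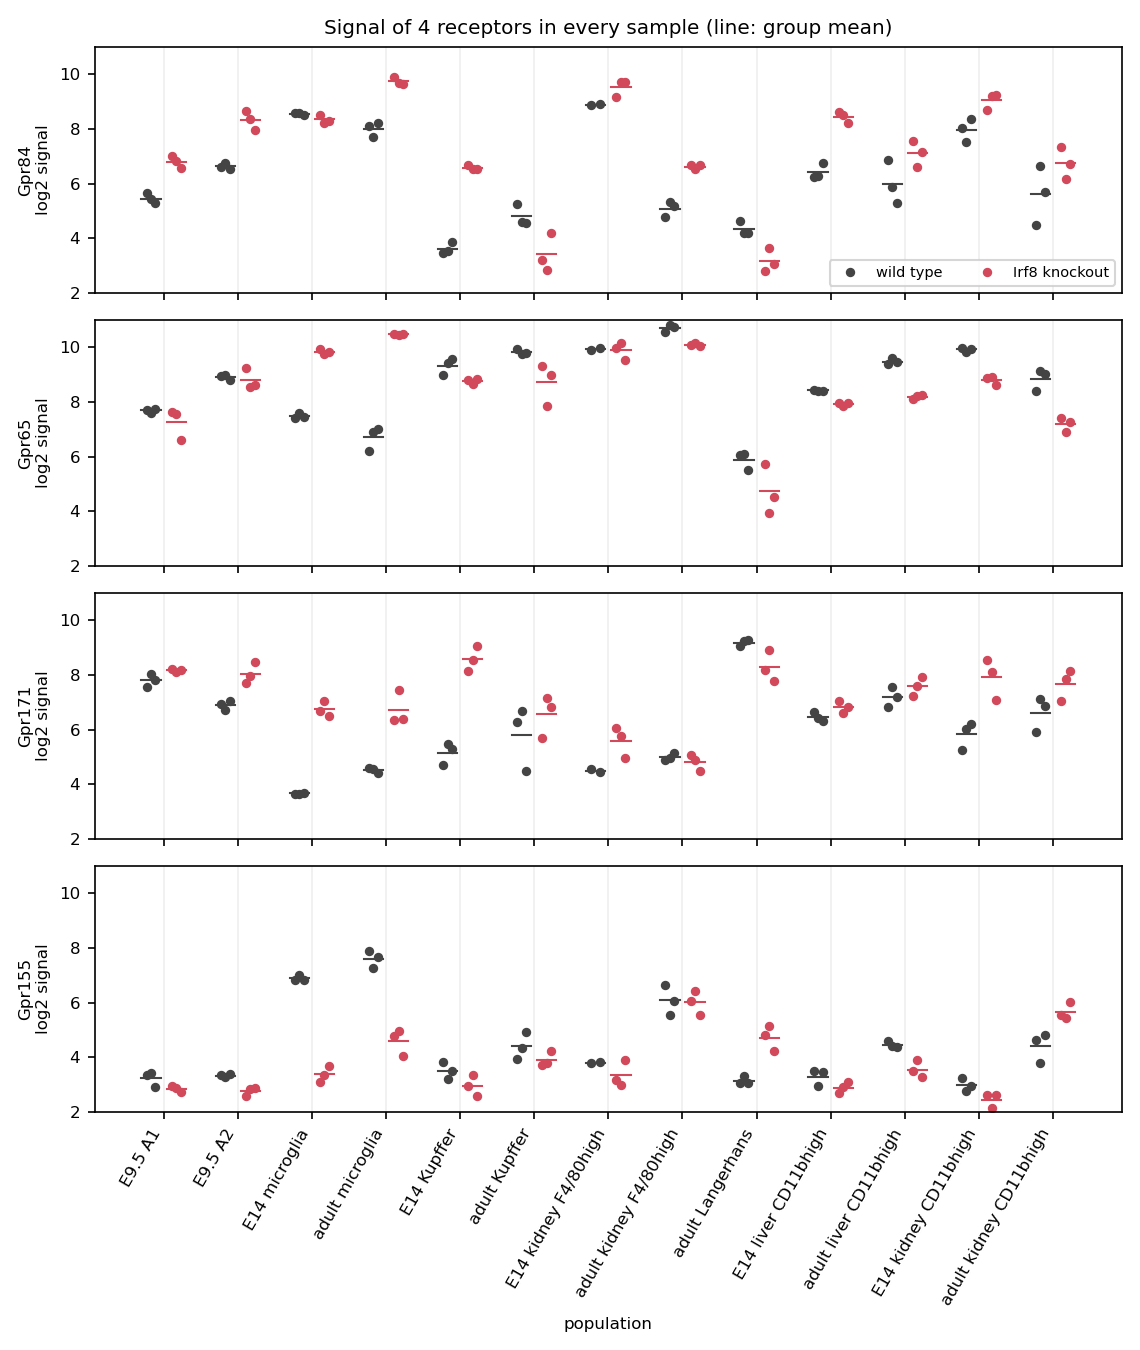
Signal (log2) of Gpr84, Gpr65, Gpr171 and Gpr155 in every sample of the 13 populations, wildtype and Irf8 knockout side by side, with a bar at each group mean. Gpr65 and Gpr171 are higher, and Gpr155 lower, in every knockout microglia sample than in any wildtype one of the same stage.

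Leukocyte orphans gave 12 higher and 7 lower pairs, with 85 of 104 not past (18.3% called, against 12.9% over all genes), and Gpr171 was higher in 6 populations. In E14 Kupffer cells it rose from 4.72, 5.46 and 5.29 to 8.16, 8.53 and 9.04 (3.42 ± 0.36). In E14 microglia it rose from 3.65, 3.66 and 3.68 to 6.67, 7.04 and 6.51 (3.07 ± 0.36), and in adult microglia from 4.60, 4.54 and 4.42 to 6.34, 7.44 and 6.38 (2.20 ± 0.36). No knockout sample overlapped a wildtype one in these populations, and the second Gpr171 probe rose by 3.75, 3.07 and 2.91. It also rose in E14 kidney CD11bhigh macrophages (2.09 ± 0.36), whereas its calls in A2 (1.15) and adult kidney CD11bhigh macrophages (1.06) were lost when single samples were left out, with adjusted p up to 0.171 without the third knockout A2 sample and 0.272 without the first wildtype kidney sample.

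Gpr141 rose in E14 microglia from 2.23, 2.05 and 2.82 to 5.18, 5.67 and 5.43 (3.06 ± 0.37), in E14 Kupffer cells (1.97 ± 0.37) and in E14 kidney CD11bhigh macrophages (1.81 ± 0.37). Its adult microglia values of 1.71 to 3.19 in knockout and 1.56 to 3.06 in wildtype overlapped, near or below the floor. Gpr160 rose in adult liver CD11bhigh macrophages from 5.08, 4.85 and 5.59 to 7.46, 7.17 and 7.10 (2.07 ± 0.26) and fell in A2 by 1.52 ± 0.26. In E14 microglia, the mean of 6 monocyte markers ran from 3.92 to 5.15 in wildtype and 6.71 to 7.07 in knockout samples, and that of the neutrophil markers from 4.22 to 7.35 and 8.63 to 9.06. These markers move with Gpr141 and Gpr171 there, and their part was not tested.

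Of the members listed as proteins of intracellular membranes, 6 pairs were higher, 8 lower and 64 did not pass (17.9% called). Gpr155 fell in adult microglia from 7.88, 7.26 and 7.68 to 4.78, 4.95 and 4.04 (-3.02 ± 0.27, adjusted p = 2.48e-14) and in E14 microglia from 6.82, 6.99 and 6.82 to 3.09, 3.35 and 3.68 (-3.50 ± 0.27, adjusted p = 5.09e-16). The other Gpr155 probes moved the same way, by -1.28 and -1.95 in adult and -0.92 and -1.63 in E14 microglia. In Langerhans cells the brightest Gpr155 probe rose (1.58 ± 0.27), a call that was lost with the mean of its probes. Gpr137b, a lysosomal protein, fell in Langerhans cells from 7.72, 7.68 and 7.66 to 5.18, 4.92 and 5.37 (-2.53 ± 0.35), beside the keratinocyte markers given above. Gpr137c rose in adult liver (1.51 ± 0.23) and E14 liver CD11bhigh macrophages (1.33 ± 0.23).

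The endothelium-type receptors rose in adult Kupffer samples together with the endothelial markers. Gpr182 read 7.79, 7.01 and 8.76 in wildtype and 9.50, 10.20 and 9.72 in knockout (1.95 ± 0.39), and Adgrf5 read 5.07, 5.03 and 7.20 against 8.36, 8.34 and 7.92 (2.44 ± 0.34). Adgrl4 read 4.72, 4.07 and 7.21 against 7.17, 8.52 and 8.24 (2.64 ± 0.40), and the groups overlapped by a single wildtype sample, the third, which was also the highest for Gpr182 and Adgrf5. When only the Kupffer groups were fitted, the calls for Adgrf5 and Adgrl4 were lost and 1 receptor passed instead of 13. In E14 Kupffer cells, where the endothelial mean was 3.78 to 4.07 in wildtype and 3.66 to 3.96 in knockout, Adgrl4 rose by 2.07 ± 0.40 while Gpr182 read 3.90 to 4.10 against 3.66 to 4.84. In E14 liver CD11bhigh macrophages Adgrl4 fell by 1.93 ± 0.40.

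**Figure D5:**
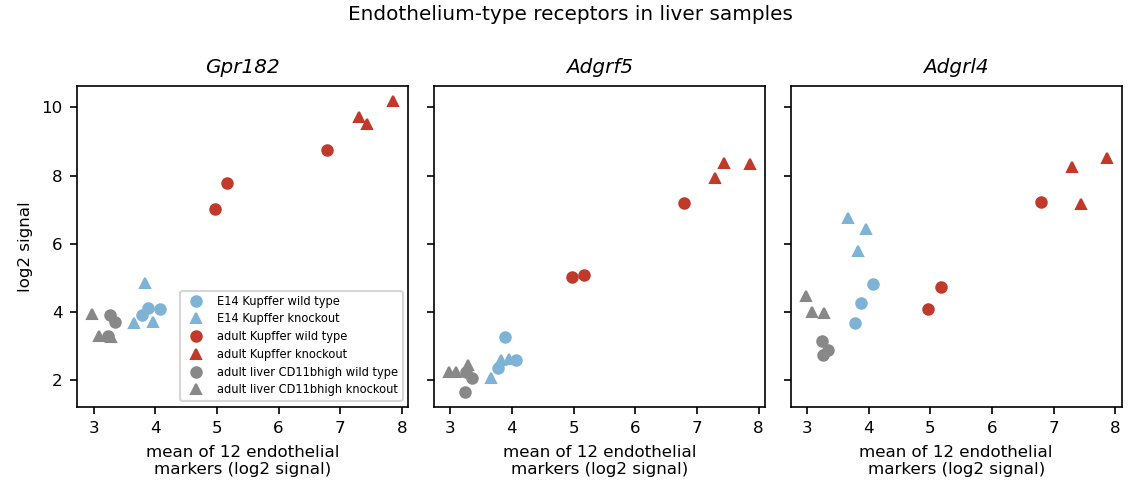
Signal (log2) of Gpr182, Adgrf5 and Adgrl4 against the mean of 12 endothelial markers. Each point is 1 sample of the E14 Kupffer, adult Kupffer or adult liver CD11bhigh groups. The E14 liver CD11bhigh samples are not drawn. The 3 adult Kupffer knockout samples have both the highest marker means, 7.30 to 7.86, and the highest Gpr182 and Adgrf5 values.

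Adhesion receptors of subfamily E, which carry EGF-like repeats and mark myeloid cells, gave 10 lower and 2 higher of 26 pairs and 14 that did not pass (46.2% called, against 12.9% over all genes), over 2 tested genes. Adgre1 fell in A1 from 6.42, 5.70 and 5.51 to 3.72, 3.10 and 2.83 (-2.66 ± 0.26) and in A2 from 7.50, 7.90 and 7.72 to 6.37, 6.24 and 5.66 (-1.62 ± 0.26). It also fell in E14 kidney CD11bhigh (-1.33 ± 0.26) and adult liver CD11bhigh macrophages (-1.12 ± 0.26). The mean of 8 macrophage markers, Adgre1 included, ran from 6.12 to 6.27 in wildtype and 4.30 to 4.65 in knockout A1, and from 8.04 to 8.49 and 5.39 to 5.72 in A2. Adgre4 fell in E14 Kupffer cells (-1.40 ± 0.34) and adult liver CD11bhigh macrophages (-1.24 ± 0.34), and rose in E14 microglia from 3.36, 2.35 and 2.97 to 4.52, 5.03 and 4.93 (1.93 ± 0.34) and in Langerhans cells (1.47 ± 0.34).

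In subfamily G, 6 pairs were higher and 1 lower of 39 (17.9% called), and all were Adgrg3. In adult liver CD11bhigh macrophages it read 3.27, 3.23 and 2.92 in wildtype and 8.56, 8.20 and 8.37 in knockout, the largest knockout difference among the 64 receptors (5.24 ± 0.48, adjusted p = 5.23e-14). It rose too in E14 Kupffer cells (2.19 ± 0.48), E14 microglia (2.08 ± 0.48) and A2 (2.06 ± 0.48), and fell in Langerhans cells (-1.82 ± 0.48). In adult kidney CD11bhigh macrophages the knockout values were 6.50, 4.25 and 4.12 against 2.74, 2.86 and 2.49 (2.26 ± 0.48), a call lost when only these groups were fitted. In both adult CD11bhigh populations, and in E14 microglia, the neutrophil marker mean rose beside Adgrg3, by the values given above, and its part was not tested.

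Latrophilins (subfamily L) gave 5 higher and 5 lower pairs of 39 (25.6% called, against 12.9% over all genes). Adgrl2 fell in Langerhans cells from 7.21, 7.62 and 7.31 to 4.58, 4.84 and 5.59 (-2.37 ± 0.34), beside the keratinocyte markers given above. Adgrl3 fell in E14 Kupffer cells from 5.04, 3.99 and 5.27 to 2.52, 2.74 and 2.66 (-2.13 ± 0.29) and in E14 kidney CD11bhigh macrophages (-1.34 ± 0.29), and its rise in adult kidney CD11bhigh macrophages, from 3.44, 2.61 and 3.34 to 4.67, 6.44 and 5.17 (2.30 ± 0.29), was lost when only these groups were fitted. The second Adgrl3 probe changed less, by -0.98, -0.51 and 0.77 in these populations. Among subfamilies A, B, D, F and V, 4 pairs were higher and 3 lower of 78 (8.97% called). Adgrf4 read 2.69, 3.91 and 3.59 in wildtype and 5.44, 5.97 and 5.71 in knockout Langerhans samples, beside the keratinocyte markers. These held all 5 arrays on which it exceeded the floor, so it entered the test through them and the values are a description. Brain-type orphans gave 3 higher and 4 lower pairs of 195 (3.59% called), and the other orphans, 7 tested, 7 and 4 of 91. Among these, Gpr83, a receptor of regulatory T cells and brain, read 2.52, 1.87 and 1.80 in wildtype and 4.38, 3.60 and 4.21 in knockout adult microglia, the only group in which every sample exceeded the floor, so this too is a description. Gpr165 rose in adult kidney F4/80high macrophages from 3.64, 3.28 and 3.72 to 4.82, 5.95 and 5.35 (1.83 ± 0.25).

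Whether a knockout difference itself differed between stages was tested as an interaction. In microglia 5 receptors had a larger and 4 a smaller (more negative) knockout difference in the adult than at E14, and 10.5% of all genes passed. Gpr84 (1.92 ± 0.47) and Gpr65 (1.43 ± 0.36) had the larger adult difference. Gpr141 (-2.95 ± 0.52) and Adgre4 (-2.85 ± 0.48) rose at E14 and were not called in the adult. In Kupffer cells 7 and 6 passed, with 16.3% of all genes, and the differences were widest for Gpr84 (-4.37 ± 0.47), which rose at E14 and fell in the adult, Adgrf5 (2.75 ± 0.48) and Gpr171 (-2.67 ± 0.51). In kidney F4/80high macrophages 1 receptor passed with 1.04% of all genes, Adgrl3 (1.76 ± 0.44), and that call was lost in 7 of the fits with 1 sample left out.

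A comparison added after the values were seen set the knockout difference in adult microglia against the mean of those in adult Kupffer cells, kidney F4/80high macrophages and Langerhans cells. Here 7 receptors were higher and 5 lower, with 15.3% of all genes called. Gpr65 differed by 4.74 ± 0.29, Gpr31b by 2.58 ± 0.45, Gpr171 by 2.31 ± 0.41, Gpr84 by 2.07 ± 0.38 and Gpr155 by -3.36 ± 0.31. The direction of the Gpr65 difference thus ran opposite in microglia and in the mean of these populations.

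Genes that act with the receptors were followed in the same way. Of the 4 enzymes that make or break the oxysterol ligands of Gpr183, 2 pairs were higher and 9 lower of 52 (21.2% called, against 12.9% over all genes). The 2 higher pairs were Ch25h, cholesterol 25-hydroxylase, which read 2.52, 3.43 and 2.65 in wildtype and 8.74, 8.04 and 7.53 in knockout adult microglia (5.24 ± 0.43, adjusted p = 5.48e-16) and rose by 4.17 ± 0.43 in E14 microglia. All 9 lower pairs were Cyp27a1, sterol 27-hydroxylase, which fell by 3.21 ± 0.33 in E14 Kupffer cells. Gpr183 itself read 8.77, 8.46 and 8.36 against 8.69, 8.56 and 7.99 in adult microglia and did not pass.

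Receptor kinases and arrestins, which switch receptors off, gave 7 higher and 19 lower pairs of 78 (33.3% called, against 12.9% over all genes). Grk3 was lower in 9 populations, and in Langerhans cells it fell from 9.11, 9.21 and 9.37 to 7.62, 7.37 and 7.18 (-1.84 ± 0.29). Grk5 was lower in 5. RGS proteins, which speed up the return of G proteins to rest, gave 21 higher and 6 lower of 169 (16% called), and Rgs18 rose by 3.19 ± 0.34 in E14 microglia and by 2.67 ± 0.34 in Langerhans cells. The 25 G protein subunits gave 24 higher and 28 lower of 325 (16% called). In adult microglia 7 fell and 18 did not pass, with Gng10 lower by 2.27 ± 0.17, whereas in Langerhans cells 7 rose and 4 fell and Gng10 rose by 1.68 ± 0.17.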

How the data were processed

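Gene expression was measured on Affymetrix arrays of amplified RNA from sorted cells. The deposited values are log2 signals to which the authors applied RMA; the submitters' processing notes name Affymetrix Expression Console. No software version or build is given in the sources used here. The table held 41345 probes on 81 arrays, with array medians from 2.94 to 3.19; the number of arrays limits the precision. The 2 array runs of the second A2 knockout sample were averaged. Probes took symbols from the platform annotation: 23521 had 1 symbol, 1814 several and 16010 were not listed. The brightest 1-symbol probe stood for a gene, which left out 11 labels with several symbols, and 5 receptors had several probes.

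A limma (3.58.1, R 4.3.3) model with 1 mean per group was fitted over all 80 samples and 17099 genes, with trended eBayes and 53 residual degrees of freedom, and Benjamini-Hochberg adjustment over all genes at 0.05, two-sided. Differences are on the log2 scale with the model's SE. On simulated data for the adult microglia knockout comparison, 62% of shifts of 1 and 96% of shifts of 2 log2 units were called, with 12 false calls among the unshifted genes. The simulated noise had 1 spread per gene in all groups, so it cannot show what unequal spread between groups would do.

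The members, gene lists and tests were chosen with earlier results of these data known. Named in a comparison were up to 8 receptors each way with the largest called differences whose samples did not overlap, up to 4 per role list with the smallest adjusted p, and Adgre1 and Irf8; a few others were named after their values were seen. One comparison, of adult microglia with the other adult resident populations, was added after values were seen. Alternatives were array weights, only the compared groups, a replicate block, quantile normalization, median centring, no filter, the mean of probes, each run of the doubled sample, and each sample left out. Same-numbered samples were checked for pairing: in 0 of 20 comparisons did every pair correlate above 0.1 (r from -0.176 to 0.386), so the fit carries no pairing of the groups compared. Fractions of 1 organ whose titles share a number may still come from the same animals. At E14 they share their Xist pattern in liver and in knockout kidney, and knockout microglia share that of knockout liver. In 0 of 10 such sets of fractions did every pair correlate above 0.1 (r from -0.034 to 0.386). Treating these fractions as a random block was added after the data were seen, and that block does not join microglia to liver.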

Additional observations from a re-analysis of the deposited data

Results flagged for a closer look

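For 35 receptor differences, the test of an interaction showed that the knockout difference itself was unequal between populations (limma, adjusted over all genes). Groups of 2 or 3 samples were not searched for single outlying samples. No cause was tested for any of them. Gpr83, Gpr149 and Adgrf4 exceeded the floor almost only in the group where they were high, and through it entered the test, and the Gpr149 and Gpr83 values in Kupffer cells all lay below the floor.

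In microglia, adult minus E14 knockout differences were positive for Gpr31b (2.27), Gpr83 (2.24), Gpr35 (1.93), Gpr84 (1.92) and Gpr65 (1.43). They were negative for Gpr141 (-2.95), Adgre4 (-2.85), Adgrg3 (-2.19) and Gpr165 (-1.35). Gpr65 rose at both stages, and more so in the adult.

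In Kupffer cells, adult minus E14 knockout differences were positive for Adgrf5 (2.75), Adgrl2 (2.27), Gpr182 (1.91), Adgrl3 (1.45), Gpr83 (1.17), Gpr27 (1.03) and Gpr149 (0.95). They were negative for Gpr84 (-4.37), Gpr171 (-2.67), Gpr174 (-2.36), Gpr141b (-2.07), Gpr141 (-1.78) and Gpr137b (-1.37). The endothelial markers and the sex pattern of the adult Kupffer samples move with these values, and their part was not tested. In kidney F4/80high macrophages Adgrl3 differed by 1.76.

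Against the 3 other adult resident populations, the knockout difference in adult microglia was higher for Gpr65 (4.74), Gpr31b (2.58), Gpr171 (2.31), Gpr84 (2.07), Gpr83 (1.87), Gpr35 (1.19) and Gpr52 (1.15). It was lower for Gpr155 (-3.36), Gpr165 (-1.35), Adgre4 (-1.31), Adgrl1 (-1.10) and Adgrf4 (-0.76).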

How the results depend on the processing

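Of 410 receptor calls, 259 were kept in every alternative and 0 changed direction. With array weights, the number of receptors called was 5 in adult Kupffer and 5 in adult kidney CD11bhigh knockouts, 6 in E14 kidney F4/80high, 19 in E14 liver CD11bhigh, 19 for A2 against A1, and 6 for the Kupffer stage interaction. With only the compared groups fitted, it was 1 in adult Kupffer, 1 in adult kidney CD11bhigh and 1 in E14 kidney F4/80high knockouts, 15 in E14 microglia, 3 in A1, 8 for the Kupffer and 0 for the kidney stage interaction, which was also 0 with the mean of probes. The cause was not tested. With a replicate block, 406 of 410 calls were kept. With same-numbered fractions of an organ as a random block, an alternative chosen after seeing the data (estimated correlation 0.05), 409 were kept, the Kupffer stage interaction of Gpr137b being lost (-1.37, adjusted p = 0.0513).

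Leaving out single samples gave 7 to 11 calls for adult against E14 microglia and 11 to 17 for kidney F4/80high macrophages. For the knockout it gave 1 to 5 in A1, 6 to 9 in E14 liver CD11bhigh, 6 to 10 in adult kidney CD11bhigh, 8 to 15 in adult Kupffer cells, 8 to 12 in E14 kidney CD11bhigh macrophages and 0 to 1 for the kidney stage interaction. Where 1 sample was left in a group, it was assumed to vary like the other groups. Signals near the floor of 3.04 limit what can be seen of the 30 receptors with no group mean above it.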

Other observations

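Several further receptors distinguished the wildtype adult resident populations. Gpr157 (1.43 ± 0.26, log2, SE), Gpr82 (1.25 ± 0.25) and Gpr146 (1.05 ± 0.16) were higher in microglia than in the mean of the other 3 populations. Gpr4 (3.19 ± 0.29), Adgrl2 (2.99 ± 0.28), Gpr137b (2.73 ± 0.29) and Gpr183 (2.28 ± 0.25) were higher in Langerhans cells, where Gpr155 (-2.88 ± 0.22), Gpr146 (-1.51 ± 0.16) and Gpr157 (-1.48 ± 0.26) were lower.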
